A study of Oryza sativa with 12 samples.

Results

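Of the 1039 long non-coding RNA (lncRNA) loci listed for rice (Oryza sativa) leaves, 51 held at least 3 transcripts that were all classed as long intergenic non-coding RNA (lincRNA). The rule used that count and class alone and no expression value, but it was set with earlier results of these data known. Whether the number of transcripts listed for a locus depends on its expression was not tested. Together the 51 loci held 237 of the 1485 transcripts listed. By size, 20 loci held 3 transcripts, 14 held 4, 8 held 5, 1 held 6, 3 held 8, 4 held 9 and 1, XLOC_033756, held 15. Just outside the rule were 44 lincRNA loci with 2 transcripts. The loci carry assembly identifiers only, with 0 symbols given, so they are described by identifier and no function or position is assigned.

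The libraries were made from ribosomal RNA-depleted total RNA of leaves, collected at booting, the stage in which the young panicle swells within the sheath of the flag leaf. The study crossed the cultivars Kongyu131 and Dongnong422 with a control and a cold treatment, giving 4 groups of 3 libraries (Kongyu131 control, Kongyu131 cold, Dongnong422 control and Dongnong422 cold) and asking which lncRNAs respond to cold. Cold was 17 °C in an incubator for 13 days, with 16 h of light and 8 h of dark each day. That protocol stands on the labels of the controls too, so what the controls received is not stated separately, and temperature and incubator cannot be told apart. A leaf was taken per bucket, but separate plants are not stated for the replicates, so p-values measure the spread between these libraries, which may be technical. The leaf label could not be checked against leaf genes, since the tables list lncRNAs only.

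LincRNAs are transcribed from stretches between protein-coding genes, are often spliced, and as a class are known for low levels and for differing between tissues and varieties of a plant. A locus can give several transcripts through different start sites, splice sites or ends. In rice, lncRNAs are known to act, among other roles, as precursors or decoys of small RNAs and as regulators of neighbouring genes, and cold at the booting stage is known for harming pollen formation. When a locus holds several transcripts, the total output of the locus and its division among transcripts are separate quantities, and the second is estimated from reads that the transcripts share.

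Values were in FPKM, a fragment count relative to transcript length and library size, and the number of reads behind them is unknown. The 51 loci held 123 to 179 FPKM per library, which was 0.0102% to 0.053% of all FPKM listed there. Dongnong422 cold 2 stood apart, with 1219109 FPKM listed, against 298486 to 670059 in the others, and with 67 transcripts of these loci above 0 but under 0.001 FPKM, against 31 to 54 in the others. In whole leaves, a lower value from fewer cells of a type and from less RNA per cell cannot be told apart.

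Summed over its transcripts, a lincRNA locus with several transcripts was moderately expressed. The median of the 51 locus means was 2.14 FPKM, against 1.20 FPKM over all 1039 loci, 1.37 FPKM for lincRNA loci with 1 transcript, 0.801 FPKM for those with 2, and 1.35 FPKM for the 41 antisense loci with 3 or more. In 43 of the 51 the mean was at least 1 FPKM. The median of single transcripts was 0.363 FPKM for the 237 transcripts, against 0.682 FPKM for all 1485. All 51 loci passed the filter of a mean of 0.1 FPKM, and 215 of the 237 transcripts did.

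Levels were uneven among the loci. XLOC_030014, with 5 transcripts, was the highest at 26.9 FPKM on average, followed by XLOC_019359, with 4 transcripts, at 12.0 FPKM. Next came XLOC_056551 at 4.98 FPKM, XLOC_053074 at 4.75 FPKM and XLOC_048705 at 4.73 FPKM, which did not differ beyond their spread between libraries. XLOC_056551, with 8 transcripts, ran from 4.04 to 6.34 FPKM over the 12 libraries and was called in no comparison of the sums, although with quantile normalization it was called lower in Dongnong422 in cold (-0.66 on the log2 scale, limma adjusted p = 0.0225). XLOC_053074, with 9 transcripts, ran from 2.95 to 6.59 FPKM and was not called either. The lowest mean, 0.478 FPKM, was that of XLOC_009751, which was above 0 in a single library.

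The median spread between replicates was smaller for locus sums than for transcripts. Within a group of 3 libraries, the median coefficient of variation was 19.2% for locus sums and 51.7% for transcripts, over 190 and 750 group values. The median SD of a transcript's share of its locus was 7.71 percentage points over 889 group values.

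The division was counted as an effective number of transcripts, the number of equally expressed transcripts that would give the same evenness (the inverse of the summed squared shares). Over the 51 loci the mean effective number ran from 1.29 to 5.58 with a median of 2.55. For the 20 loci with 3 transcripts it ran from 1.29 to 2.88, and for the 8 loci with at least 8 transcripts from 3.15 to 5.58. Of the 237 transcripts, 104 held a mean share of at least 20% of their locus and 26 held under 5%. In XLOC_033756 the 15 listed transcripts gave an effective number of 5.58 ± 0.76 (SD, n = 12), and LNC_000900, the transcript most often highest there, held 12.4% to 35.5%.

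**Figure D1:**
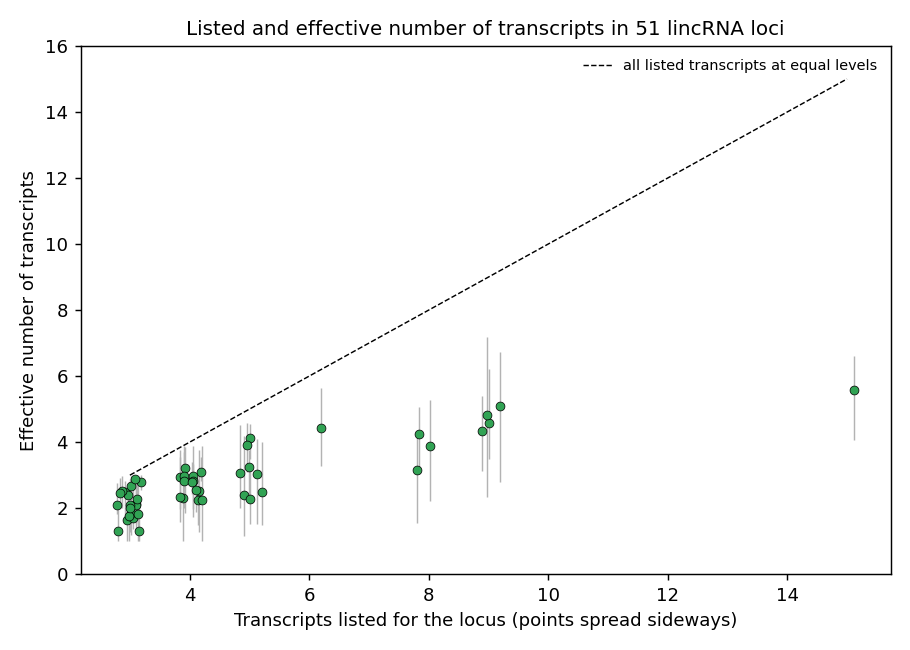
Effective number of transcripts (vertical axis) against the number listed (horizontal axis) for the 51 lincRNA loci. Points are means over the libraries in which the locus was above 0, grey bars run from the lowest to the highest library, and the dashed line marks equal levels of all listed transcripts. The locus with 15 transcripts reached 5.58, far under the dashed line.

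Which transcript was highest was unstable in most loci. In 8 of the 51 loci the same transcript was highest in every library with a value above 0, in 13 loci 2 transcripts took turns, and in 30 loci 3 or more did. Of the 8, 5 were above 0 in all 12 libraries. These were XLOC_019359 led by LNC_000506, XLOC_005274 led by LNC_000094, XLOC_012323 led by LNC_000256, XLOC_023450 led by LNC_000625 and XLOC_020057 led by LNC_000526. The last was the most uneven of the 5, with a share of 71.5% on average for LNC_000526 and an effective number of 1.72 ± 0.325 (SD, n = 12). Among the 41 antisense loci with 3 or more transcripts, 40 were above 0 in all 12 libraries, and 2 of the 41 had a single leader. Loci above 0 in fewer libraries can keep a single leader more easily. The median effective number of the antisense loci was 2.39, and the difference from the lincRNA loci was not tested. The median effective number per library lay between 2.59 and 2.88 in 11 libraries and at 2.28 in Dongnong422 cold 2.

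In cold, as an average of both cultivars, 16 of the 51 locus sums changed, 5 rising and 11 falling. The falls were led by XLOC_012262, XLOC_044428 and XLOC_016000, and included the most abundant locus, XLOC_030014. XLOC_012262 changed by -1.67 on average and by -3.01 in Dongnong422 (log2), where a cold library is at 0. In Kongyu131 its groups overlapped, with means of 3.11 FPKM in controls and 2.45 FPKM in cold. Its average call was lost with median-ratio scaling, quantile normalization, the replicate number as a block, a pseudocount of 0.01 FPKM or the highest transcript. The rises were those of XLOC_014676, XLOC_049032, XLOC_009047, XLOC_012636 and the second most abundant locus, XLOC_019359. Calls are limma results with an adjusted p (Benjamini-Hochberg) under 0.05 over all 1036 loci that passed the filter, on log2(FPKM + 0.1). The 16 calls were 31.4% of the 51, against 21.7% of all loci tested, or 7.14% higher and 14.6% lower, and the excess was not tested. The median change of the 51 was -0.16 on the log2 scale, next to -0.14 for all loci. With that overall shift subtracted, the called rises ran from 0.79 to 1.15 and the called falls from -0.37 to -1.53. With median-ratio scaling, or with quantile normalization, 6 rose and 6 fell, 11 of these 12 being among the 16. Both kept all 5 rises and the falls of XLOC_016000, XLOC_030014, XLOC_030724, XLOC_041730, XLOC_044428 and XLOC_048705.

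**Figure D2:**
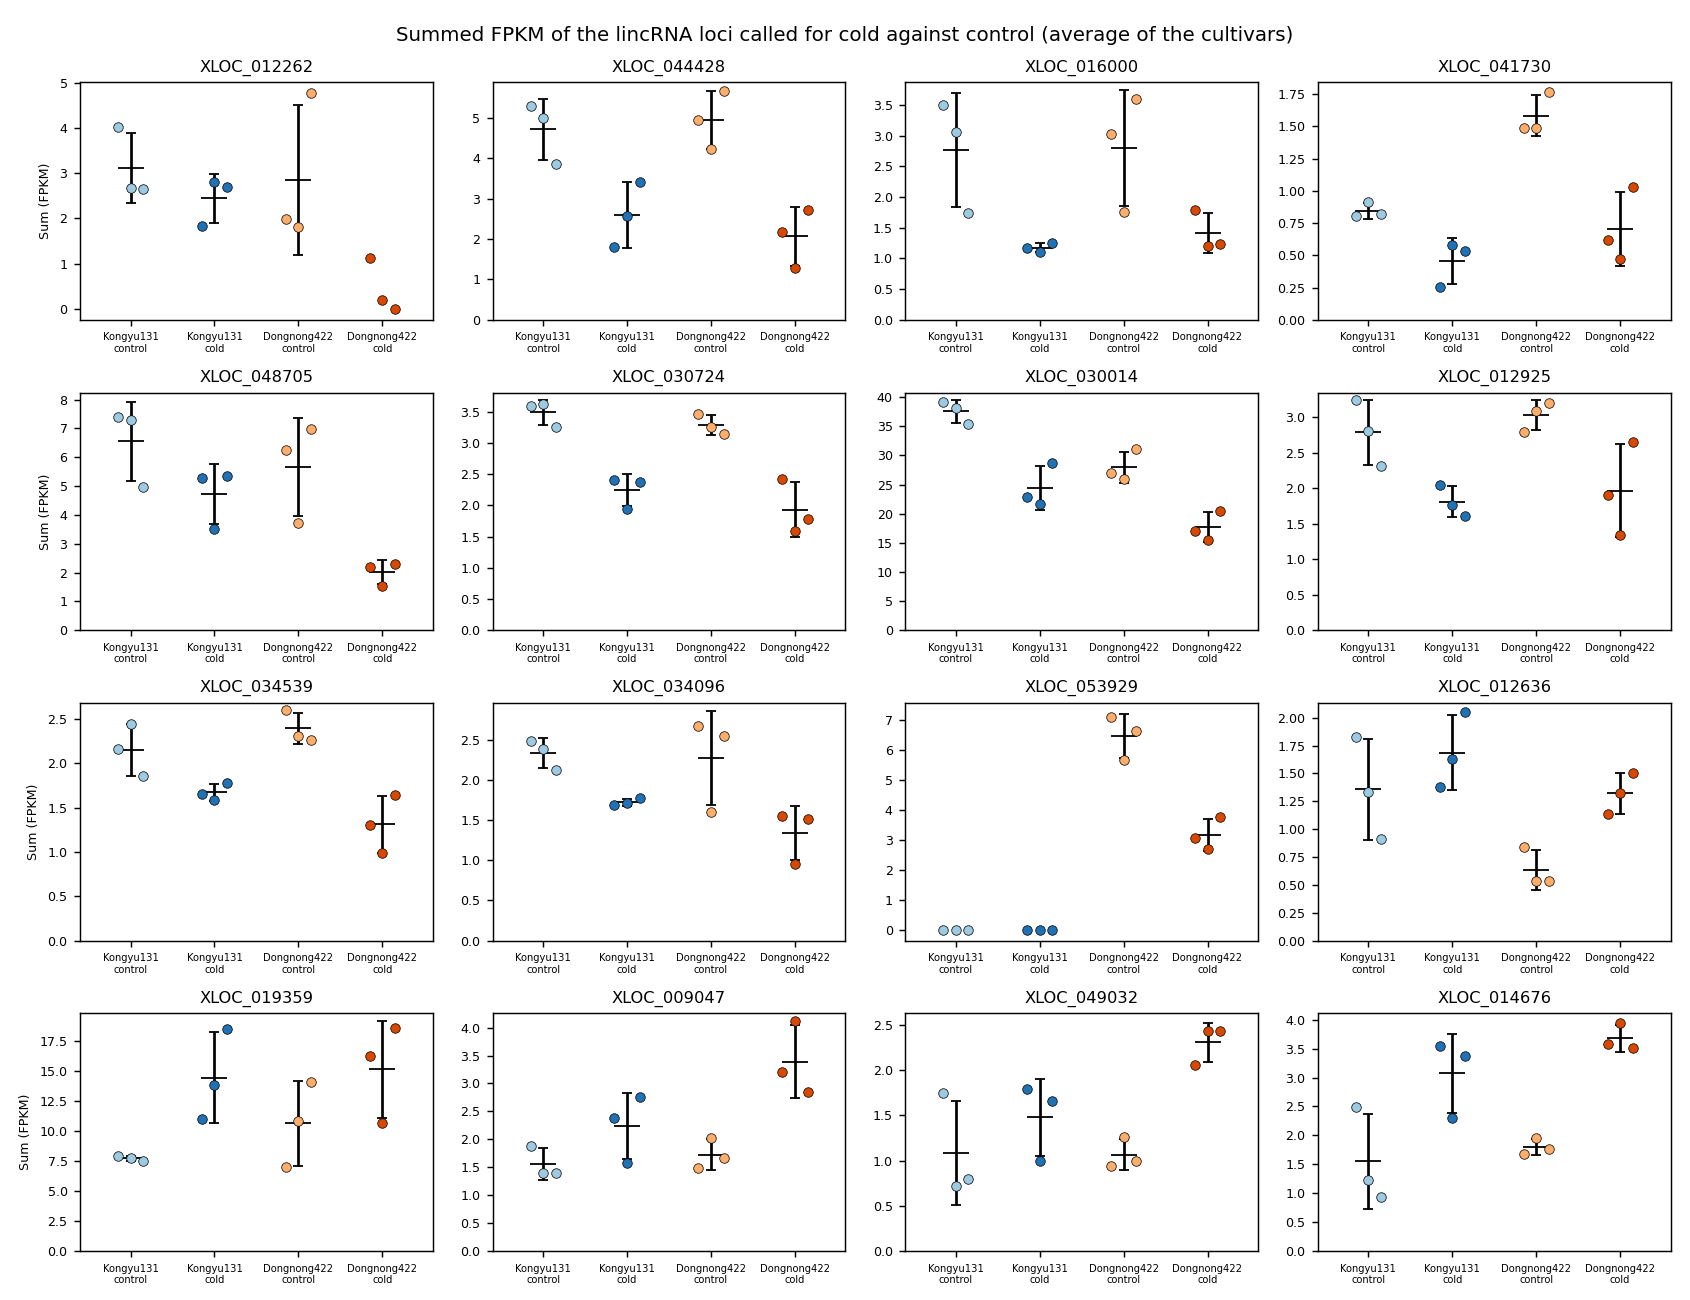
Summed FPKM (vertical axis) of the 16 lincRNA loci called for cold against control as an average of both cultivars, ordered from the largest fall to the largest rise. Points are libraries, and bars are the mean ± SD of 3 libraries, drawn for groups with no library at 0. XLOC_030014 fell from 35.3 to 39.2 FPKM in Kongyu131 controls to 21.7 to 28.8 FPKM in cold, and XLOC_053929 is at 0 in all Kongyu131 libraries.

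XLOC_030014 fell in both cultivars without overlap. In Kongyu131 its sum was 39.2, 38.2 and 35.3 FPKM in controls and 22.9, 21.7 and 28.8 FPKM in cold. The Dongnong422 sums were 27.0, 25.9 and 31 FPKM in controls and 17.1, 15.5 and 20.5 FPKM in cold. Every cold library lay below every control of its cultivar. The average change was -0.65 ± 0.14 (log2, SE, limma adjusted p = 0.0112, n = 12 libraries).

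XLOC_044428, with 8 transcripts, fell in both cultivars. Its sum was 5.30, 5.0 and 3.87 FPKM in Kongyu131 controls, 1.80, 2.56 and 3.42 FPKM in Kongyu131 cold, 4.95, 4.24 and 5.67 FPKM in Dongnong422 controls and 2.18, 1.29 and 2.73 FPKM in Dongnong422 cold. The groups did not overlap within a cultivar. The average change was -1.07 ± 0.22 (log2, SE, limma adjusted p = 0.00883). In cold the group mean was lower for 6 of its 8 transcripts in Kongyu131 and for 8 of 8 in Dongnong422.

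XLOC_030724, a locus of 9 transcripts, fell from a narrow range of control values. They lay between 3.14 and 3.62 FPKM in both cultivars, and the cold libraries lay between 1.59 and 2.42 FPKM, below all 6 controls. The change was -0.69 ± 0.14 (log2, SE, limma adjusted p = 0.00929). None of its transcripts led consistently, since 3 different ones were highest in some library.

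XLOC_016000, with 4 transcripts, was 3.50, 3.07 and 1.73 FPKM in Kongyu131 controls and 1.17, 1.10 and 1.26 FPKM in cold. Dongnong422 sums were 3.02, 1.76 and 3.6 FPKM in controls and 1.79, 1.21 and 1.23 FPKM in cold. Kongyu131 cold lay below its controls, while in Dongnong422 the highest cold library passed the lowest control by a small margin. The average change was -1.01 ± 0.23 (log2, SE, limma adjusted p = 0.0127).

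XLOC_041730 is among the more weakly expressed loci. It was 0.804, 0.914 and 0.819 FPKM in Kongyu131 controls and 0.254, 0.579 and 0.535 FPKM in cold, and 1.49, 1.49 and 1.77 FPKM in Dongnong422 controls and 0.616, 0.474 and 1.03 FPKM in cold. Cold and control did not overlap within either cultivar, and the average change was -0.97 ± 0.22 (log2, SE, limma adjusted p = 0.0126). A single transcript, LNC_001098, was highest in 11 of the 12 libraries.

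XLOC_048705 fell mainly in Dongnong422 libraries as measured, although the difference between cultivars was not called. In Kongyu131 it was 7.40, 7.29 and 4.98 FPKM in controls and 5.27, 3.52 and 5.35 FPKM in cold, which overlap. Dongnong422 sums were 6.26, 3.73 and 6.98 FPKM in controls and 2.20, 1.54 and 2.30 FPKM in cold, which do not. The changes were -0.47 ± 0.30 in Kongyu131 and -1.42 ± 0.30 in Dongnong422, and their difference of -0.95 ± 0.42 had a limma adjusted p of 0.26. All 3 transcripts had lower cold means in both cultivars, and in Dongnong422 none of the 3 overlapped between treatments.

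The highest rise, that of XLOC_014676 with 5 transcripts, was similar in both cultivars. It was 2.49, 1.23 and 0.939 FPKM in Kongyu131 controls and 3.55, 2.29 and 3.38 FPKM in cold. The Dongnong422 libraries held 1.68, 1.95 and 1.76 FPKM in controls and 3.58, 3.95 and 3.50 FPKM in cold. Kongyu131 groups overlapped through control 1 and cold 2, and Dongnong422 groups were well apart. The average rise was 1.01 ± 0.22 (log2, SE, limma adjusted p = 0.0114).

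XLOC_019359 rose in all 4 of its transcripts by group mean, in both cultivars. Its sum was 7.90, 7.78 and 7.52 FPKM in Kongyu131 controls and 11, 13.9 and 18.5 FPKM in cold, with no overlap. In Dongnong422, 7.04, 10.8 and 14.1 FPKM in controls overlapped with 16.2, 10.7 and 18.6 FPKM in cold. The average change was 0.69 ± 0.22 (log2, SE, limma adjusted p = 0.0438), and LNC_000506 kept 34.9% to 49.7% of the locus throughout.

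The remaining rises were smaller in absolute level. XLOC_009047 reached 2.85 to 4.11 FPKM in Dongnong422 cold, against 1.48 to 2.03 FPKM in its controls, with an average change over the cultivars of 0.70 ± 0.18 (log2, SE, limma adjusted p = 0.0231). XLOC_049032 reached 2.05 to 2.44 FPKM in Dongnong422 cold against 0.938 to 1.26 FPKM, with an average change of 0.77 ± 0.23 (log2, SE, limma adjusted p = 0.0402). XLOC_012636 had an average change of 0.65 ± 0.20 (log2, SE, limma adjusted p = 0.0428). In Kongyu131 the groups of all 3 loci overlapped.

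Transcripts of the called loci mostly moved with their sum. Of the 58 transcripts in the 11 loci that fell, 40 had a lower cold mean in Kongyu131 and 52 in Dongnong422, where the 3 transcripts of XLOC_053929 were at 0 in Kongyu131. Of the 21 transcripts in the 5 loci that rose, 17 had a higher cold mean in Kongyu131 and 20 in Dongnong422. These counts describe the same values that gave the calls and were not tested.

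The other falls were those of XLOC_012925, XLOC_034539, XLOC_034096 and XLOC_053929. XLOC_053929 is listed at 0 in Kongyu131, so its average reflects Dongnong422 alone, and the 6 exact zeros enter the estimate of its spread. Leaving out each library in turn, 7 of the 16 calls held in all 12 fits, namely XLOC_014676, XLOC_016000, XLOC_030014, XLOC_030724, XLOC_041730, XLOC_044428 and XLOC_048705. XLOC_009047 and XLOC_034539 held in 10 of the 12 fits and XLOC_012925 in 4. XLOC_019359, XLOC_049032 and XLOC_053929 held in 3, XLOC_012636 in 2, and XLOC_012262 and XLOC_034096 in 1. The count fell to 7 without Kongyu131 control 2, to 9 without Kongyu131 cold 2 or Dongnong422 cold 2, and to 10 without Kongyu131 cold 3, Dongnong422 control 3 or Dongnong422 cold 1. It was 6 when the highest transcript of a locus replaced its sum.

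Within Kongyu131 alone, 1 of the 51 locus sums was called, a fall, against 12.0% of all loci, or 8.69% that fell. XLOC_016000 fell by 1.11 ± 0.32 on the log2 scale (limma adjusted p = 0.0487), and 11 of the 51 had an unadjusted p under 0.05. It kept its call without Kongyu131 control 3, Dongnong422 control 2 or Dongnong422 control 3 and lost it without any other library. The median change of the 51 was -0.15, next to -0.09 for all loci. Either scaling replaced this call by rises of XLOC_014676 and XLOC_019359. Cold and control did not overlap in 4 loci that were higher in cold and in 10 that were lower, or 7.84% and 19.6% of the 51, against 9.36% and 20.5% of all loci.

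Within Dongnong422, 10 of the 51 changed, against 12.8% of all loci, 2 rising and 8 falling, against 4.34% and 8.49% of all loci. With median-ratio scaling the split was 4 and 4, and with quantile normalization 4 and 7. The largest fall, -3.01 ± 0.72 (log2, SE, limma adjusted p = 0.0258), was that of XLOC_012262, with 1.99, 1.82 and 4.77 FPKM in controls and 1.12, 0.206 and 0 FPKM in cold. A cold library is at 0, and the change ran from -3.94 to -2.14 over the 12 fits without a library, while the call was lost without Dongnong422 control 3 or cold 2 and held in 7 of 10 other alternatives. It was followed by XLOC_048705, by XLOC_044428 at -1.27 ± 0.31 (limma adjusted p = 0.0269) and by XLOC_041730 at -1.12 ± 0.31 (limma adjusted p = 0.0398). The change of XLOC_053929 was -1.01 ± 0.21 (limma adjusted p = 0.0136), with 7.10, 5.64 and 6.61 FPKM in controls and 3.06, 2.71 and 3.75 FPKM in cold. With the 6 Dongnong422 libraries alone, which leaves the Kongyu131 zeros out of the spread, its limma adjusted p was 0.0493. The other falls were those of XLOC_027968, XLOC_034539 and XLOC_030724. XLOC_012636 rose by 0.97 ± 0.28 (limma adjusted p = 0.0473), from 0.841, 0.532 and 0.532 FPKM to 1.13, 1.32 and 1.5 FPKM, and XLOC_009047 rose by 0.93 ± 0.26 (limma adjusted p = 0.0398). The median change of the 51 was -0.23, next to -0.09 for all loci.

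Several Dongnong422 changes were clear of overlap without being called. Cold exceeded control in 7 loci and lay below it in 17, or 13.7% and 33.3% of the 51, against 14.1% and 20% of all loci. The count of 10 calls was 0 without Dongnong422 control 3 or cold 2, 4 without Dongnong422 cold 1, and 5 without Dongnong422 control 1 or Kongyu131 control 2. It was 2 with the highest transcript in place of the sum or with the 6 Dongnong422 libraries alone. With those 6 libraries the calls were XLOC_053929, which is among the 10, and XLOC_014676 (limma adjusted p = 0.0425), which is not.

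No locus sum was called for a difference of cold effects between the cultivars, by limma at an adjusted p under 0.05, and 4 of the 51 had an unadjusted p under 0.05. Over all loci 1.64% were called, 0.869% with a higher and 0.772% with a lower effect in Dongnong422. With a pseudocount of 1 FPKM the count was 1, XLOC_053929 at -0.84 ± 0.19 (limma adjusted p = 0.0472), a locus listed at 0 in Kongyu131. The 10 calls in Dongnong422 and the 1 in Kongyu131 are thus not shown to be different responses.

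Between the cultivars, 9 of the 51 locus sums differed in controls and 10 in cold, against 15.3% and 22.8% of all loci. In controls 6 were higher and 3 lower in Dongnong422, against 8.59% and 6.76% of all loci. In cold 5 were higher and 5 lower, against 12.3% and 10.5% of all loci. In cold the split was 6 and 5 with median-ratio scaling and 4 and 8 with quantile normalization. In controls it was 6 and 3, and 5 and 4. Of the calls, 4 in controls and 4 in cold are loci listed at 0 in all 6 libraries of a cultivar, where the size and the test rest on the pseudocount and on 6 exact zeros, so they are described by their values only. Over all 51 the median difference, Dongnong422 minus Kongyu131, was 0.07 in controls and 0.06 in cold, next to 0.01 and 0.11 for all loci.

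XLOC_034438, with 3 transcripts, was measured in Kongyu131 only. Its sum was 11.3, 9.95 and 9.46 FPKM in Kongyu131 controls and 5.96, 6.34 and 9.48 FPKM in Kongyu131 cold, and it is listed at 0 in all 6 Dongnong422 libraries. LNC_000927 was highest in all 6, with 47.3% to 63.5% of the locus. No fold or p is given against a group at 0. The cold change within Kongyu131, -0.52 ± 0.22, was not called (limma adjusted p = 0.148).

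The converse held for XLOC_053929, XLOC_027968 and XLOC_052594, each listed at 0 in all 6 Kongyu131 libraries. XLOC_027968 was 3.56, 2.21 and 2.55 FPKM in Dongnong422 controls and 1.35, 1.23 and 1.60 FPKM in cold, and its fall in cold was -0.92 ± 0.24 (log2, SE, limma adjusted p = 0.0353), with a limma adjusted p of 0.0963 from the 6 Dongnong422 libraries alone. XLOC_052594 was 3.11, 1.16 and 1.28 FPKM in controls and 1.34, 0.796 and 0.938 FPKM in cold, and its groups overlapped. An exact 0 for every transcript of a locus can be a failed estimate, and whether the locus is missing from the cultivar's genome was not tested.

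Loci split in this way were also counted over the whole table. At 0 in all Kongyu131 libraries and above 0 in all Dongnong422 libraries were 3 of the 51, or 5.88%, against 50 of 1039, or 4.81%. The reverse held for 1 of the 51, or 1.96%, against 36 of 1039, or 3.46%. Of the 41 antisense loci with 3 or more transcripts, 0 were split either way.

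XLOC_014634 was above 0 in both cultivars and higher in Kongyu131. Its sum was 5.24, 4.73 and 3.04 FPKM in Kongyu131 controls and 3.41, 3.14 and 3.84 FPKM in cold. The Dongnong422 libraries held 1.03, 0.705 and 1.84 FPKM in controls and 0.711, 0.623 and 0.409 FPKM in cold. All Kongyu131 libraries lay above all Dongnong422 libraries. Dongnong422 minus Kongyu131 was -1.84 ± 0.34 in controls (log2, SE, limma adjusted p = 0.00214) and -2.41 ± 0.34 in cold (limma adjusted p = 0.000224).

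XLOC_005274, led by LNC_000094, was higher in Dongnong422, by 1.01 ± 0.30 in controls (limma adjusted p = 0.0472) and by 1.21 ± 0.30 in cold (limma adjusted p = 0.0136). Its cold libraries were at 1.40, 1.57 and 1.18 FPKM in Kongyu131 and at 3.17, 3.40 and 3.40 FPKM in Dongnong422, without overlap. In controls 1.53 to 3.58 FPKM in Kongyu131 overlapped with 3.53 to 5.98 FPKM in Dongnong422, and that call was kept in 2 of the 12 fits without a library. XLOC_014909 was higher in Dongnong422 by 1.04 ± 0.22 in controls (limma adjusted p = 0.00607) and by 0.77 ± 0.22 in cold (limma adjusted p = 0.0265), where the call was lost without Kongyu131 cold 1, Dongnong422 cold 1 or Dongnong422 cold 3.

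Other calls held in a single treatment. In controls XLOC_051438 was higher in Dongnong422, at 0.810, 4.44 and 2.55 FPKM against 0, 0.116 and 0.0397 FPKM (limma adjusted p = 0.0128, lost without Dongnong422 control 2). Its cold values, 0.162, 2.40 and 4.44 FPKM in Dongnong422 against 0.0235, 0.192 and 0.136 FPKM, overlapped and were not called. With median-ratio scaling or the replicate number as a block, XLOC_051438 was called in cold too. In controls XLOC_012636 was lower in Dongnong422 by -0.96 ± 0.28 (limma adjusted p = 0.0421), a call kept in 4 of the 12 fits. In cold, Dongnong422 was lower for XLOC_012262 by -2.91 ± 0.72 (limma adjusted p = 0.013) and for XLOC_048705 by -1.19 ± 0.30 (limma adjusted p = 0.0142). The same held for XLOC_053164, by -0.80 ± 0.25 (limma adjusted p = 0.0413), which kept its call in 4 of 12 fits. Without being called in controls, XLOC_053164 did not overlap there either, at 1.46 to 2.11 FPKM in Dongnong422 and 2.70 to 3.04 FPKM in Kongyu131. The XLOC_048705 call was lost without Kongyu131 cold 1 or Dongnong422 cold 2. Whether such a difference depends on treatment is the difference of cold effects above, which was called for none of these loci.

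Dongnong422 and Kongyu131 did not overlap in 9 loci that were higher and 9 that were lower in Dongnong422 controls, 17.6% of the 51 each, against 14.2% and 14.2% of all loci. In cold the numbers were 10 and 10, 19.6% each, against 21.3% and 17.1%.

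In 2 loci the libraries of a group split between 0 and at least 5 FPKM. XLOC_051184 was 14.4, 0 and 9.29 FPKM in Dongnong422 controls and 0, 10.4 and 13.5 FPKM in Dongnong422 cold, while Kongyu131 libraries were at 0 or at most 0.017 FPKM. It was therefore high in 4 Dongnong422 libraries of both treatments and listed at 0 in the remaining 2, and it was called in no comparison with all 12 libraries. Without the library at 0 in the group, it was called higher in Dongnong422, in controls without control 2 and in cold without cold 1. XLOC_009751 was 5.74 FPKM in Dongnong422 control 2 and 0 in all other libraries. Over all loci 19 of 1039, or 1.83%, behaved in this way. The cause of the split was not tested.

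**Figure D3:**
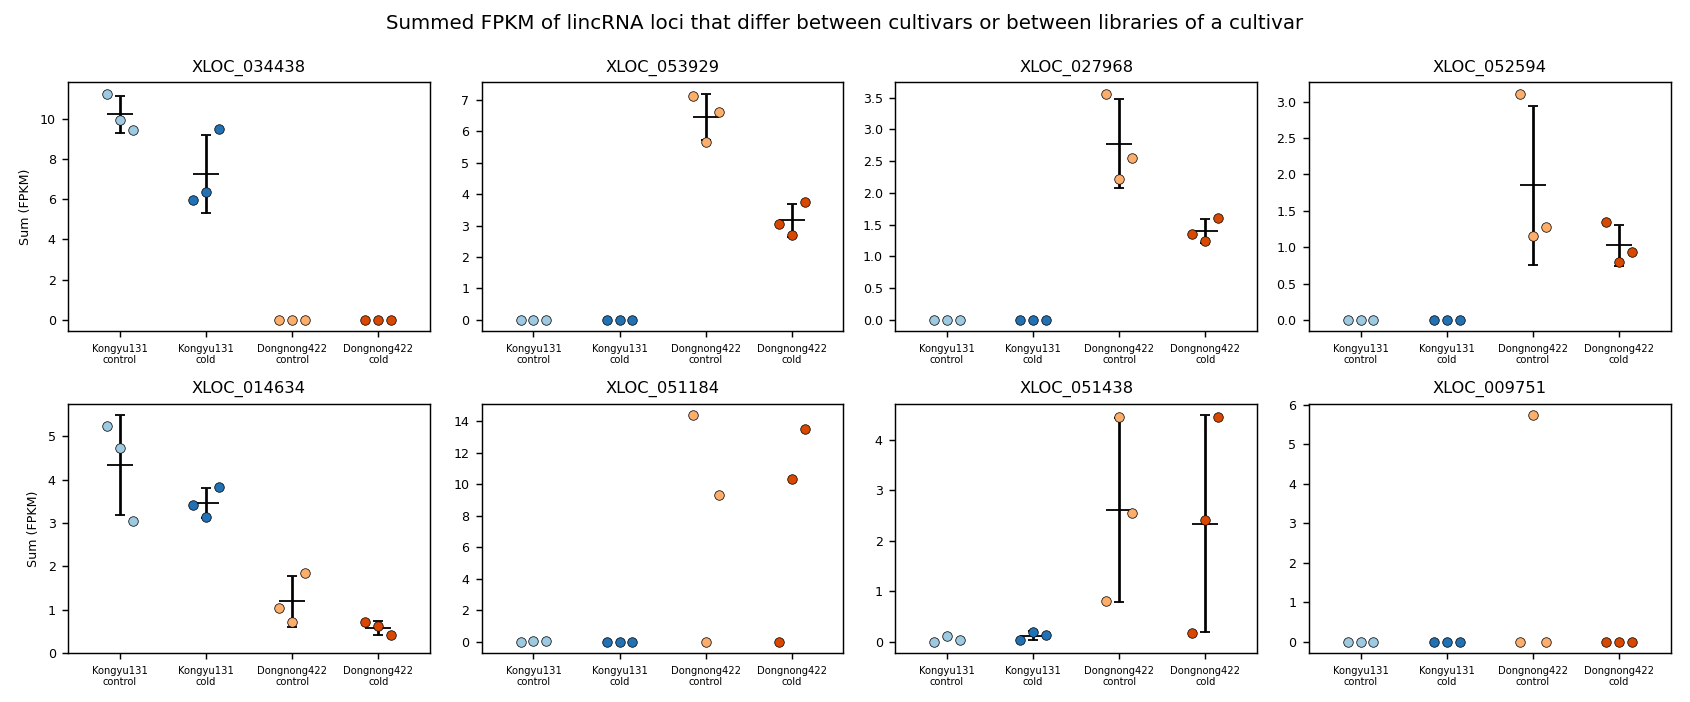
Summed FPKM (vertical axis) of 8 lincRNA loci that differ between cultivars or between libraries of a cultivar. Points are libraries, and bars are the mean ± SD of 3 libraries, drawn for groups with no library at 0. XLOC_034438 is at 0 in all Dongnong422 libraries, XLOC_053929, XLOC_027968 and XLOC_052594 are at 0 in all Kongyu131 libraries, and XLOC_051184 is at 0 in 2 of 6 Dongnong422 libraries.

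Few transcripts were called for a change with cold in the division of their locus. As an average of the cultivars, 4 of the 215 transcripts tested changed relative to the rest of their locus, 2 gaining and 2 losing. That was 1.86%, against 1.3% of the 616 transcripts tested over all loci with at least 2 transcripts, or 0.812% gaining and 0.487% losing. The test was limma on log2 of a transcript's FPKM + 0.1 over the summed FPKM of the other transcripts + 0.1. Through the pseudocount this ratio still moves with the scaling of a library, most at low values, and other scalings were not run for shares. The median change in this ratio was 0.00846 for the 215 and -0.00363 for all. An unadjusted limma p under 0.05 was reached by 34 of the 215 and by 88 of all 616. Few calls therefore do not show that the other shares were steady.

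In XLOC_030014 a single transcript, LNC_000804, lost most of its signal in both cultivars. It was at 9.41, 11.4 and 9.84 FPKM in Kongyu131 controls and 1.61, 2.06 and 2.01 FPKM in cold. In Dongnong422 it was at 8.00, 6.94 and 10.7 FPKM in controls and 1.38, 0.276 and 2.72 FPKM in cold. All 6 cold libraries lay below all 6 controls, and its share of the locus went from between 24% and 34.5% in the 6 controls to between 1.78% and 13.3% in the 6 cold libraries. The ratio to the rest of the locus changed by -2.35 ± 0.44 (log2, SE, limma adjusted p = 0.0297). The call held in 4 of the 12 fits without a library, those without Kongyu131 control 1 or any of the 3 Dongnong422 cold libraries, and the highest adjusted p was 0.087.

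Much of the fall of XLOC_030014 was that of LNC_000804. The mean sum was lower in cold by 13.1 FPKM in Kongyu131, of which LNC_000804 made up 8.33 FPKM, and by 10.3 FPKM in Dongnong422, of which it made up 7.09 FPKM. Without it, the sum of the other 4 transcripts was 27.3 ± 2.18 FPKM in control and 22.6 ± 3.75 FPKM in cold in Kongyu131 (SD, n = 3), where the groups overlapped. In Dongnong422 it was 19.4 ± 0.785 and 16.2 ± 1.35 FPKM (SD, n = 3), without overlap. This division was chosen after the values were seen and was not tested.

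The other 4 transcripts did not move alike. LNC_000801, the highest in 9 of the 12 libraries, was at 10.3 to 11.7 FPKM in Kongyu131 controls and at 7.04 to 10.3 FPKM in cold. LNC_000800, the lowest in Kongyu131 controls at 3.65, 2.97 and 3.47 FPKM, was at 4.31, 5.05 and 5.86 FPKM in Kongyu131 cold, above all its controls, while in Dongnong422 it was at 0.934 to 2.78 FPKM and 1.19 to 1.62 FPKM. LNC_000802 was lower in Kongyu131 cold without overlap, at 7.91, 5.70 and 7.76 FPKM in controls and 4.70, 3.87 and 5.67 FPKM in cold. In Dongnong422 it overlapped between treatments, at 4.96, 5.01 and 5.42 FPKM in controls and 4.97, 4.85 and 5.14 FPKM in cold. LNC_000803 was lower in Dongnong422 cold without overlap, at 4.89, 4.19 and 5.35 FPKM in controls and 2.95, 3.66 and 3.58 FPKM in cold, and overlapped in Kongyu131.

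**Figure D4:**
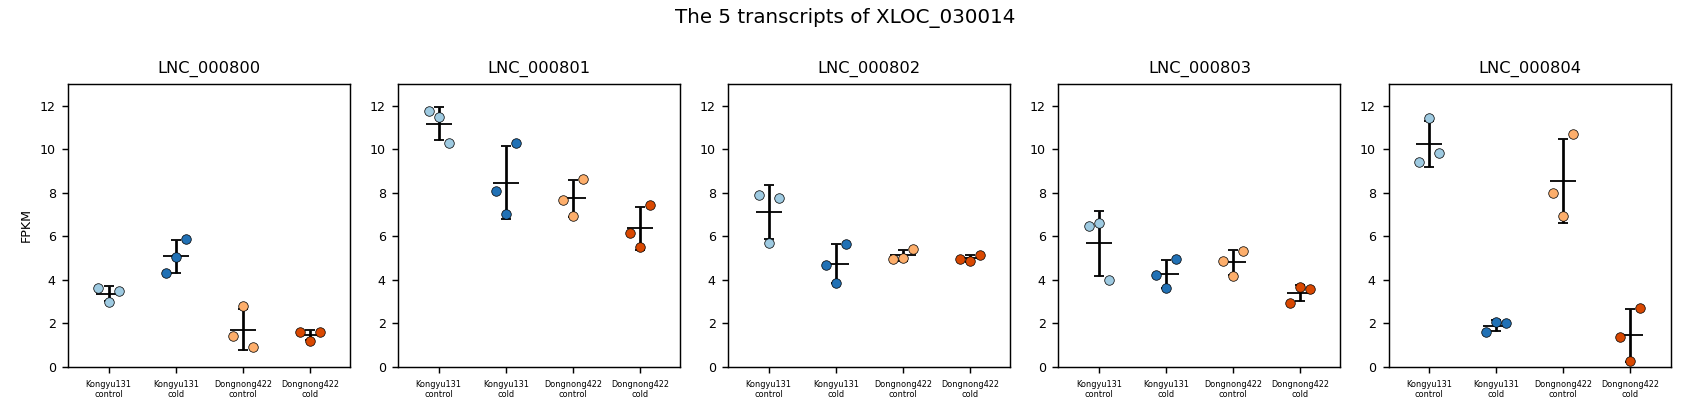
FPKM (vertical axis, from 0) of the 5 transcripts of XLOC_030014 in the 4 groups. Points are libraries, and bars are the mean ± SD of 3 libraries. LNC_000804 falls from between 6.94 and 11.4 FPKM in the 6 controls to between 0.276 and 2.72 FPKM in the 6 cold libraries.

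In XLOC_034861, a locus of 4 transcripts, LNC_000951 gained share. The sum of the locus was 2.75, 4.49 and 4.84 FPKM in Dongnong422 controls and 1.98, 1.64 and 2.17 FPKM in cold, without overlap. It was not called with the pseudocount of 0.1 FPKM over all 12 libraries, but was called for cold in Dongnong422 with a pseudocount of 1 FPKM (limma adjusted p = 0.0471), among loci with a mean of at least 1 FPKM, and without Kongyu131 cold 1 or Dongnong422 control 1. The LNC_000951 share was 19.4%, 22.8% and 11.7% in Kongyu131 controls and 36.0%, 47.9% and 53.6% in cold. In Dongnong422 it was 19.3%, 19.7% and 15% in controls and 45.7%, 40.3% and 47.3% in cold. All 6 cold libraries lay above all 6 controls. The ratio to the rest rose by 1.77 ± 0.28 (log2, SE, limma adjusted p = 0.0114), and the call held in all 12 fits without a library. In FPKM the transcript was less clear, at 0.274 to 0.743 in Kongyu131 controls against 0.543 to 1.46 in cold, and at 0.530 to 0.885 in Dongnong422 controls against 0.659 to 1.03 in cold. The other 3 transcripts were all lower in Dongnong422 cold without overlap. LNC_000953 went from between 1.03 and 2.25 FPKM to between 0.503 and 0.922 FPKM, LNC_000950 from between 0.684 and 0.967 FPKM to between 0.219 and 0.394 FPKM, and LNC_000952 from between 0.351 and 1.27 FPKM to at most 0.231 FPKM. In Kongyu131 all 3 overlapped between treatments.

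The remaining calls were of transcripts under 0.5 FPKM in most libraries and are named because the count is small. LNC_000401 of XLOC_016000 gained by 1.95 ± 0.39 (log2, SE, limma adjusted p = 0.0297). It held 13.0%, 3.26% and 7.55% of the locus in Kongyu131 controls and 23.0%, 13.4% and 25% in cold, and 14.6%, 5.04% and 4.12% in Dongnong422 controls and 28.6%, 40.0% and 40.6% in cold. LNC_001403 of XLOC_054897 lost by 2.01 ± 0.37 (limma adjusted p = 0.0297). The sum of that locus was 0.674, 0.146 and 1.41 FPKM in Kongyu131 controls and 0.122, 0.206 and 1.96 FPKM in Dongnong422 controls. Near the pseudocount of 0.1 FPKM the ratio is drawn toward 0, so the size of that loss depends on it. The first call held in 3 and the second in 2 of the 12 fits without a library. The count of 4 was 1 or 2 without any library other than Kongyu131 control 1 or Dongnong422 cold 1.

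Within a cultivar no share was called, in a comparison added after the data were seen. In Kongyu131, 0 of 215 were called by limma with 23 at an unadjusted p under 0.05, against 0.649% called of all, and in Dongnong422, 0 of 215 with 25, against 0.0% of all. With a pseudocount of 1 FPKM the counts were 6 and 5. For the difference of cold effects on shares, 0 of 215 were called with 12 at an unadjusted p under 0.05, against 0.162% of all. That count was 1, LNC_001373 of XLOC_053693, without Dongnong422 cold 2.

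In XLOC_053929, described because of its values, LNC_001381 was not called for cold in Dongnong422 relative to the rest of the locus (-2.34 ± 0.39, log2, SE, limma adjusted p = 0.0571). The Kongyu131 libraries, all at 0, enter this fit with a constant ratio set by the pseudocount. They add no spread, so the SE and p may be too small. LNC_001381 held 28.8%, 33.8% and 35.1% of the locus in controls and 11%, 2.22% and 7.04% in cold, going from 2.04, 1.91 and 2.32 FPKM to 0.336, 0.0601 and 0.264 FPKM. LNC_001383 and LNC_001382 together went from 4.36 ± 0.666 to 2.95 ± 0.463 FPKM (SD, n = 3). The groups did not overlap for either quantity. Of the fall in the sum, 3.28 FPKM, LNC_001381 made up 1.87 FPKM.

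Between the cultivars, as an average of the treatments, 11 of the 215 transcripts differed in their ratio to the rest of the locus, 4 higher and 7 lower in Dongnong422. That was 5.12%, against 4.38% of all, or 1.95% higher and 2.44% lower. Of the 11, 7 belong to the 4 loci listed at 0 throughout a cultivar, where no share exists and the ratio is set by the pseudocount, so they describe no division. The other 4 are LNC_000356 and LNC_000354 of XLOC_014909, LNC_000920 of XLOC_034096 and LNC_000255 of XLOC_012323. With loci of at least 0.5 FPKM in every library, a restriction added after the data were seen, 3 were called, LNC_000255 dropping out.

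In XLOC_014909 the division among the 3 transcripts differed between the cultivars. LNC_000356 was at 1.52, 1.61 and 2.48 FPKM in Dongnong422 controls and 1.37, 0.703 and 1.62 FPKM in Dongnong422 cold. In Kongyu131 it was under 0.001 FPKM in 5 libraries and 0.216 FPKM in cold 2. Its share in Dongnong422 ran from 31.4% to 63.2%, and in Kongyu131 from 0.000481% to 13.1%. The ratio to the rest was higher in Dongnong422 by 3.82 ± 0.38 (log2, SE, limma adjusted p = 0.000214), and the call held in all 12 fits without a library.

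LNC_000354 of the same locus went the other way. It was at 0.738, 0.778 and 1.13 FPKM in Kongyu131 controls and 0.791, 0.625 and 0.911 FPKM in cold, and its share there ran from 37.8% to 77.7%. In Dongnong422 it was at 0.285, 0.151 and 0.553 FPKM in controls and 0.000227, 0.633 and 0.124 FPKM in cold, with a share of 0.00965% to 28.2%. The cultivars overlapped in cold. The ratio was lower in Dongnong422 by -3.47 ± 0.59 (log2, SE, limma adjusted p = 0.00534). Without LNC_000356 the locus held 1.48 ± 0.123 FPKM in Kongyu131 controls and 1.32 ± 0.105 FPKM in Dongnong422 controls (SD, n = 3), and 1.34 ± 0.204 and 1.25 ± 0.277 FPKM in cold. LNC_000355, the remaining transcript, was at 0.879, 0.598 and 0.324 FPKM in Kongyu131 controls and 0.320, 0.811 and 0.577 FPKM in cold. In Dongnong422 it was at 0.986, 1.10 and 0.890 FPKM in controls and 0.988, 0.906 and 1.09 FPKM in cold, above every Kongyu131 library. Its share was 22.3% to 54.4% in Kongyu131 and 22.7% to 41.9% in Dongnong422.

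LNC_000920 of XLOC_034096 was at 0.688, 0.541 and 0.962 FPKM in Dongnong422 controls and 0.748, 0.381 and 0.242 FPKM in cold. In Kongyu131 it was at 0.668, 0.0601 and 0.00109 FPKM in controls and under 0.001 FPKM in all 3 cold libraries. Kongyu131 control 1 was thus as high as Dongnong422, and the other 5 Kongyu131 libraries were lower than any of them. The ratio was higher in Dongnong422 by 2.79 ± 0.55 (log2, SE, limma adjusted p = 0.0121). Unlike XLOC_014909, the sum of XLOC_034096 was not called between cultivars, at -0.07 ± 0.25 in controls (limma adjusted p = 0.923) and -0.37 ± 0.25 in cold (limma adjusted p = 0.35). In cold the sums did not overlap, at 0.956 to 1.55 FPKM in Dongnong422 and 1.68 to 1.77 FPKM in Kongyu131. LNC_000255, a transcript of the stably led XLOC_012323, was lower in Dongnong422 by -1.39 ± 0.34 (limma adjusted p = 0.0449) and kept its call in 2 of the 12 fits.

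**Figure D5:**
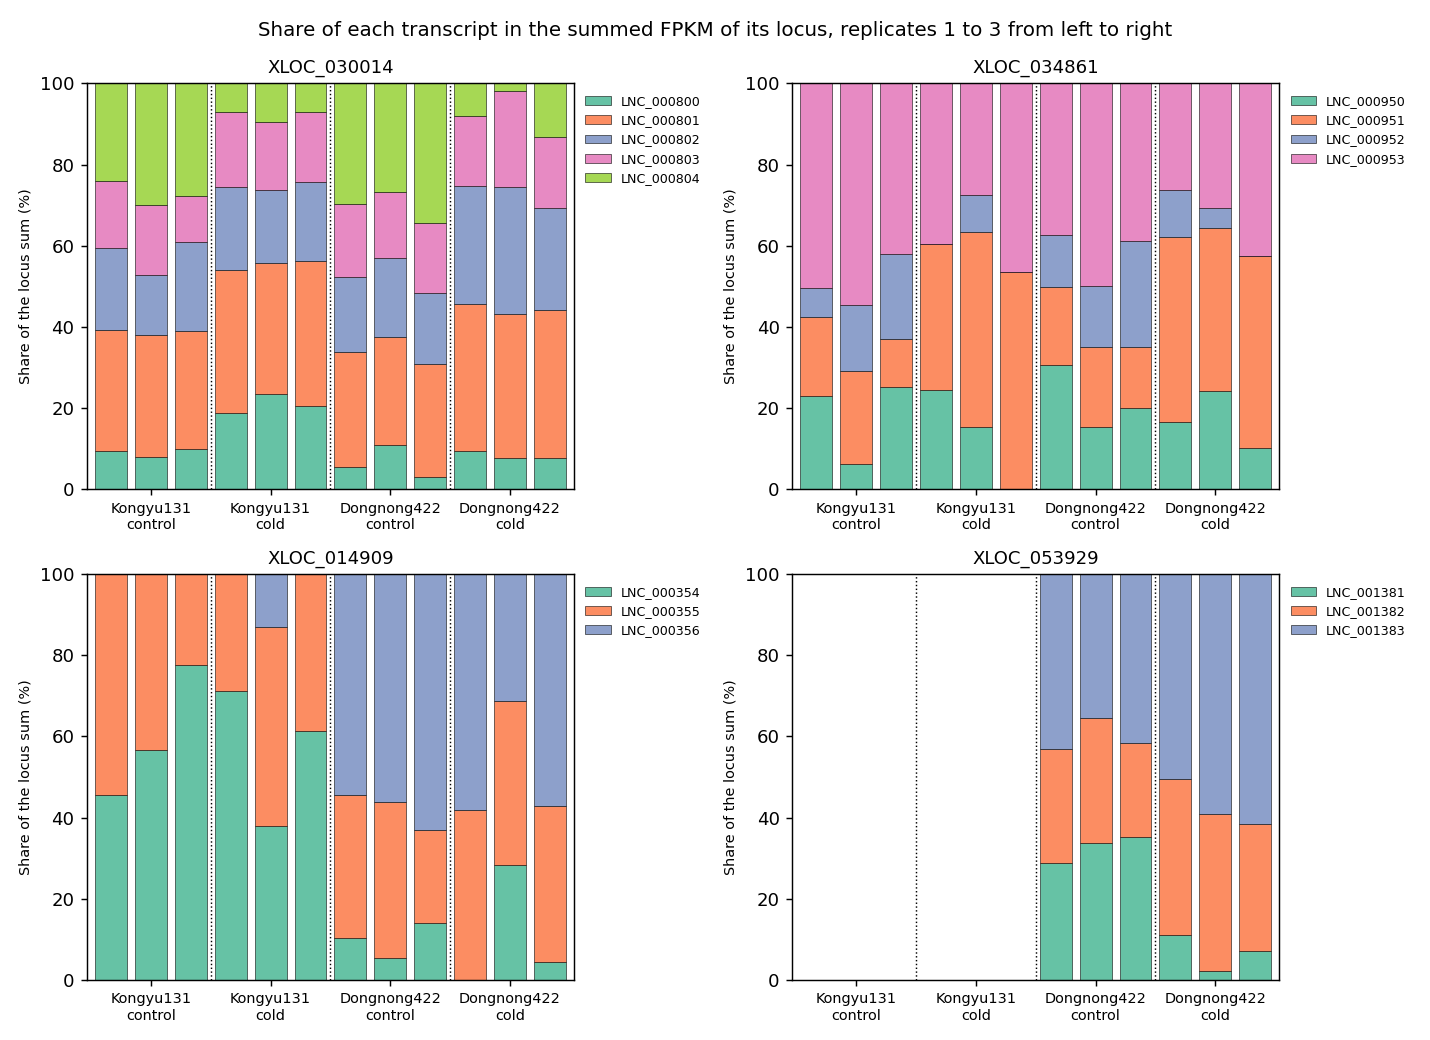
Share (%) of each transcript in the summed FPKM of its locus, for each library, with replicates 1 to 3 of the 4 groups from left to right. LNC_000804 shrinks in cold in XLOC_030014, LNC_000951 grows in cold in XLOC_034861, LNC_000356 holds 31.4% to 63.2% in Dongnong422 in XLOC_014909, and XLOC_053929 has no bars in Kongyu131 because it is listed at 0.

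Of the 43 loci above 0 in all 12 libraries, none had a transcript that was highest in every library of a cultivar, or of a treatment, and in no library of the other. In XLOC_014909 LNC_000356 was highest in 5 of the 6 Dongnong422 libraries and in 0 of Kongyu131. XLOC_019359 and XLOC_005274 kept their leader in all 12 libraries and had sums called in a comparison. A constant leader did not mean a steady division in XLOC_005274, where LNC_000094 held 34.2% to 92.1%. The mean effective number of that locus was 2.95 in Kongyu131 controls and 1.67 in cold. In Dongnong422 it was 3.37 in controls and 1.57 in cold. No transcript of XLOC_005274 was called for a change of share with cold. XLOC_012323, XLOC_020057 and XLOC_023450 also kept theirs, and their sums were called in none.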

How the data were processed

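The authors deposited a table for each of the 12 libraries that gives FPKM per transcript, with the identifiers of transcript and locus and the lncRNA class. TopHat2 2.0.9 and Cufflinks 2.1.1 were used, per the submitters' processing notes. As background, Cufflinks estimates how fragments shared by overlapping transcripts are apportioned. Genome build, annotation and lncRNA classing: not given in the sources used here. As FPKM values are not counts, the depth is unknown and intervals for counting error cannot be had. Of 2524 identifiers, 0 matched the supplied gene table. An empty row in a table was removed (1 row).

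FPKM was summed over the transcripts of each locus. Sums, and each transcript against the rest of its locus, were fitted as log2 with a pseudocount of 0.1 FPKM by limma 3.58.1 in R 4.3.3 with a variance trend and 4 group means, which share an estimate of spread. Loci and transcripts under a mean of 0.1 FPKM were left out, which left 1036 loci and 616 transcripts. Tests were two-sided, with Benjamini-Hochberg adjustment over all of these. Fold changes on this scale understate those of low values. The fits were tested on simulated data with independent normal noise and planted changes. Those data held no locus fixed at 0 through a cultivar and no outlying library, so that test does not cover such cases.

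Named were the 5 highest loci and the largest, the called loci or, past 6 in a contrast, the 3 largest rises and falls with a mean of 1 FPKM, and the 2 largest share gains and losses with 0.5 FPKM. Others were chosen after their values were seen, among them the other called loci, XLOC_051184, XLOC_009751, XLOC_034861 and sums without a transcript. Members and lists were chosen with earlier results of these data known. Alternatives were a pseudocount of 1 or 0.01 FPKM, a filter at a mean of 1 FPKM or none, no trend, median-ratio scaling, quantile normalization, the replicate number as a block, the 6 libraries of a cultivar alone, the highest transcript, the arcsine root of the share, and leaving out each library. Shares within a cultivar and the restriction to loci of 0.5 FPKM were added after the data were seen.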

Additional observations from a re-analysis of the deposited data

How the results depend on the processing

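The counts of called loci in the comparisons of cultivars stayed within 1.5 times under all alternatives run. For cold in Kongyu131 (1 call) the count was 2 with a pseudocount of 1 FPKM, 3 with a mean of at least 1 FPKM, 0 without a variance trend, 2 with median-ratio scaling, 2 with quantile normalization and 0 with the 6 libraries alone. For cold in Dongnong422 (10 calls) it was 2 with the highest transcript and 2 with the 6 libraries alone, and for the average (16 calls) it was 6 with the highest transcript. The difference of cold effects gave 1 with a pseudocount of 1 FPKM. For shares, cold on average (4 calls) gave 10 with a pseudocount of 1 FPKM, 1 with 0.01 FPKM, 2 with the arcsine root and 2 in loci of 0.5 FPKM. Cultivar (11 calls) gave 2 with a mean of at least 1 FPKM, 3 with the arcsine root and 3 in loci of 0.5 FPKM. Cold in Kongyu131 (0 calls) gave 1 with the arcsine root and 6 with a pseudocount of 1 FPKM, and cold in Dongnong422 (0 calls) gave 5 with a pseudocount of 1 FPKM and 4 with a mean of at least 1 FPKM. The cause of these shifts was not tested.

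Leaving out each library in turn gave 0 to 2 calls for locus sums in cold Kongyu131, 0 to 12 in cold Dongnong422, 7 to 16 for the average, 0 to 0 for the difference, 7 to 8 for the cultivars in controls and 7 to 12 in cold. For shares it gave 1 to 5 for cold on average, 0 to 1 for the difference, 10 to 12 for the cultivars, and 0 to 1 for cold in either cultivar.

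The replicate numbers showed no clear pairing of the samples, although correlations of this kind cannot exclude it. Over 18 pairs with the same number, deviations from the group means correlated at -0.148 to 0.115, and 1 pair was above 0.1. A library correlated best with its own number in 8 of 36 comparisons. With the replicate number as a block the counts were 0 for cold in Kongyu131, 5 in Dongnong422, 10 for the average and 0 for shares in cold on average. Of 30 named results, 9 belong to loci listed at 0 throughout a cultivar, whose direction the zeros fix. Over the other 21, 438 alternatives were computed, of which 0 reversed a direction, 329 kept the call and 109 lost it, and 6 of the 21 kept it throughout. The 21 were named because they were called, and the alternatives reuse the same libraries. The lack of reversals is therefore no separate support for their directions.

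Depth is unknown, so low transcripts and zeros cannot be given a limit. Shares of transcripts rest on an estimated division of shared reads, and transcript FPKM varied more between replicates than locus sums did. The scale of the libraries sets part of the balance of rises and falls in cold.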
